A study of Mus musculus with 12 samples.

Results

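The genes of glycolysis and of the hypoxia response were followed through bulk RNA-seq of mouse adipose stromal cells. They comprised 36 of the 24422 features in the count tables, and all 36 were among the 16713 genes with enough counts to test. The genes were chosen by symbol for their known function, with earlier results of these data known. Tissue was adipose tissue and the cell type was given as stromal cells, the mixture of progenitor, vascular and immune cells that remains when mature adipocytes are taken away. The 12 libraries formed 4 groups of 3. In every group 1 allele of p21, the cell cycle inhibitor gene Cdkn1a, carried a knock-in, so that the p21 promoter drove its transcription, and no group had 2 unmodified p21 alleles. SD mCherry (replicates 1, 2 and 3) was p21+/mcherry on SD, a standard diet. HFD mCherry (replicates 15, 17 and 20) was p21+/mcherry on HFD, a high-fat diet; the series' design text gives this control as p21 heterozygous, and the labels were followed. HFD Tert (replicates 25, 26 and 27) was p21+/mcherry-Tert on HFD, which adds Tert, the catalytic subunit of telomerase, and HFD TertCi (replicates 30, 31 and 33) was p21+/mcherry-TertCi on HFD, which adds a catalytically inactive Tert. Age, sex, fat depot and length of the diet are not given in the labels, and the labels do not state that each library came from its own mouse, so the p-values measure the spread between these libraries. Values for a group are given in the order of its replicate numbers.

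Glycolysis turns glucose into pyruvate: transporters bring glucose in, hexokinases trap it as glucose 6-phosphate, and the enzymes that follow split and oxidise it, with lactate dehydrogenase and monocarboxylate transporters making and exporting lactate. When oxygen is low, prolyl hydroxylases of the Egln family stop marking the HIF alpha subunits for destruction, and HIF then binds short sites with the core letters ACGTG or GCGTG in many of these genes. Expanding fat in obesity is a known setting for low oxygen, and macrophages recruited to it are known for high glycolytic activity.

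The libraries held 16430330 to 19486965 counts. Levels are CPM, counts per 1000000 counts of the library size as scaled by edgeR's TMM method. Differences are log2 fold changes with a standard error (SE). The SE was calculated back from edgeR's test, as the absolute log2 fold change divided by the square root of the quasi-likelihood F statistic. The added mCherry_Tert feature had 0 counts in all 6 mCherry libraries and 33 to 86 counts in the 6 knock-in libraries, which matched the labels. Of the markers of progenitors, Pdgfra stood at 56.7 to 232 CPM, and Adiponectin (Adipoq), which defines adipocytes, reached at most 7.85 CPM. Other genes of the 12-gene adipocyte list were higher. Fabp4, a fatty acid carrier also made outside adipocytes, was at 207 to 6132 CPM, and the list summed to 511 to 6415 CPM. Epithelial and epididymal genes varied between libraries of the same group: Epcam ran from 3.23 to 543 CPM, and Crisp1, an epididymal gene, stood above 500 CPM in 8 libraries and under 1 CPM in 1 library of each group. Because the tissue was measured in bulk, fewer cells of a type and less RNA per cell cannot be told apart.

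In Hk2, Pfkfb4, Egln3 and Gpi1 the HFD mCherry libraries stood apart from the other 9. The share of all genes apart in this way was not computed, so these are values of single genes and not a result about the set. Hk2, the inducible hexokinase, was at 241 to 332 CPM in HFD mCherry and 58.4 to 147 CPM elsewhere, and Pfkfb4, a kinase that makes an activator of glycolysis, at 34.0 to 37.0 and 14.1 to 24.1 CPM. Egln3, an oxygen-sensing prolyl hydroxylase, was at 10.0 to 19.9 CPM in HFD mCherry and 24.1 to 54.9 CPM elsewhere, and Gpi1, glucose phosphate isomerase, at 105 to 123 and 133 to 220.0 CPM. Abundant enzymes such as Aldoa and Pkm overlapped between all groups.

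No gene among the 36 reached an adjusted p under 0.05 in any comparison by edgeR's quasi-likelihood test, in a table where few genes did. The comparison of diets, HFD mCherry against SD mCherry, called 0 of 36 (0.0479% of all genes tested), and 17 of the 36 had an unadjusted p under 0.05 (8 higher and 9 lower on HFD) against 24.1% of all genes (14.1% higher and 10% lower). HFD Tert against HFD mCherry called 0 of 36 (0% of all genes), with 8 at an unadjusted p under 0.05 (4 higher and 4 lower) against 16.4% of all genes (6.62% higher and 9.75% lower). HFD TertCi against HFD mCherry called 0 of 36 (0.012% of all genes), again with 8 at an unadjusted p under 0.05 (4 higher and 4 lower) against 14.7% (5.76% higher and 8.92% lower). For the mean of both knock-in groups against HFD mCherry, 0 of 36 were called (0.168% of all genes), with 9 at an unadjusted p under 0.05 (5 higher and 4 lower) against 21% (7.56% higher and 13.4% lower). For the F-test over the 4 groups 0 of 36 were called (0.012%), with 13 against 20.2%. All these comparisons share the HFD mCherry libraries.

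DESeq2, run as an alternative on the same counts, called 10 of the 36 genes between the diets (12.6% of the genes it tested), 5 between HFD Tert and HFD mCherry (4.89%), 4 between HFD TertCi and HFD mCherry (3.71%), 5 for both knock-ins (8.5%) and 9 over the 4 groups (12.8%). limma-voom called 0 of 36 in every comparison, and of all genes 0.0718% for both knock-ins, 0.012% for HFD TertCi and 0% in the others. In the comparison of diets the DESeq2 calls were Hk2, Hk3, Eno2 and Pfkfb4 at a higher level on HFD and Egln3, Eno1, Pdk4, Gpi1, Bnip3 and Ankrd37 at a lower one. In both knock-in groups against HFD mCherry, Hk2, Hk3 and Pfkfb4 were lower and Egln3 and Gpi1 higher. The number called also changed within edgeR, with a covariate, with other scaling or filtering and with single libraries left out, and the values below are given with the adjusted p of the edgeR fit described so far.

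The median log2 fold change of the 36 genes between diets was -0.07, beside -0.08 over all genes tested. With library size as the only scaling both medians moved, to -0.28 for the 36 genes and -0.28 for all genes, and none of the 27 differences chosen by p-value below changed its sign. For HFD Tert the median was 0.23 beside -0.05 over all genes, for HFD TertCi 0.06 beside -0.04, and for both knock-ins 0.16 beside -0.05. The plot of all 36 differences shows them by role.

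**Figure D1:**
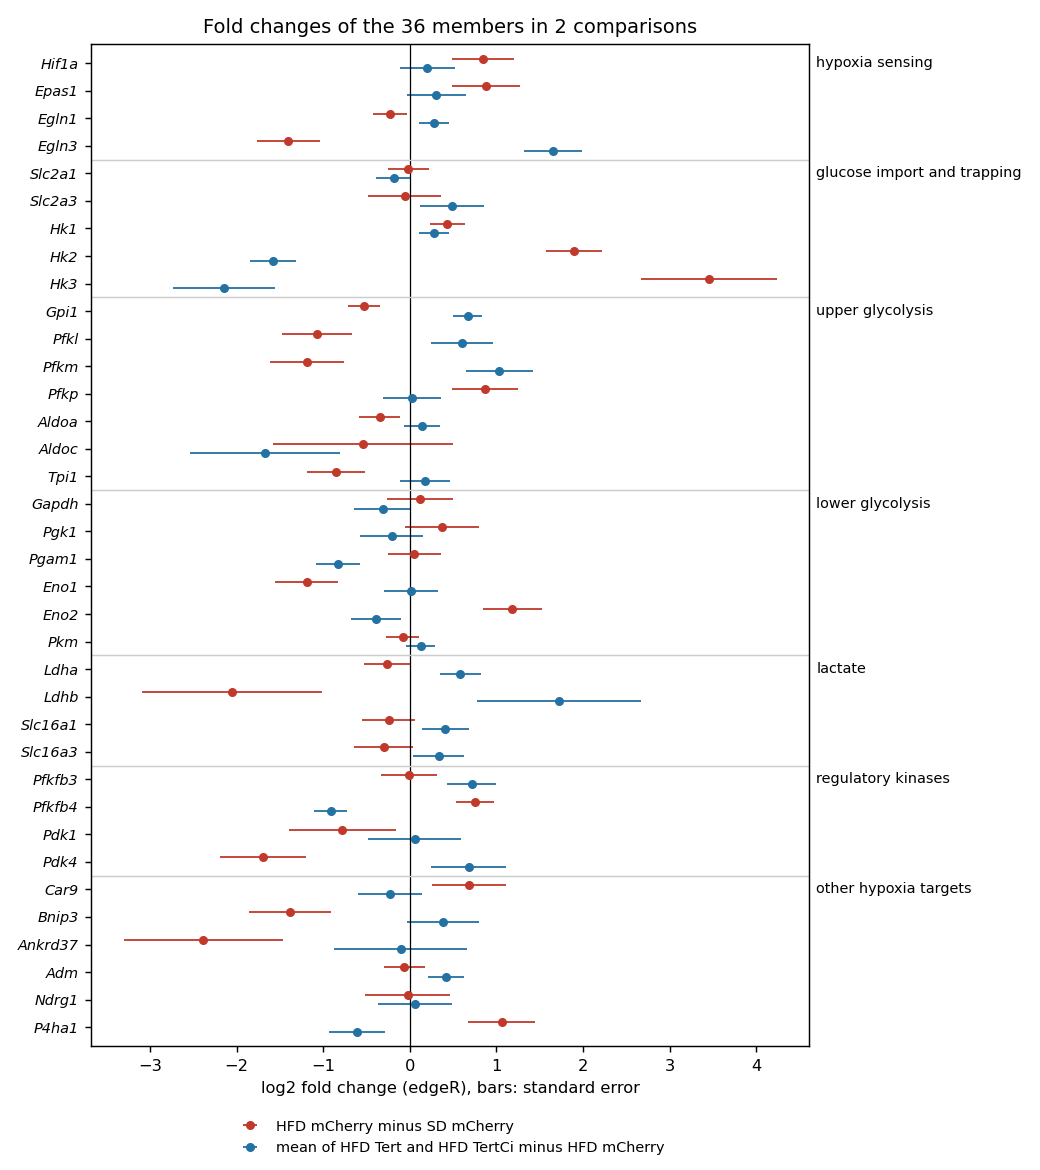
Log2 fold change from edgeR with its standard error (bars) for each of the 36 genes, grouped by role, for HFD mCherry minus SD mCherry (red) and for the mean of HFD Tert and HFD TertCi minus HFD mCherry (blue); both comparisons use the same 3 HFD mCherry libraries. Hk3 has the highest diet value (3.46) and the lowest knock-in value (-2.15).

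Of the 36 genes, 12 had diet groups that did not overlap (25.5% of all genes tested). Hk2, Hk3, Eno2, Pfkfb4 and Epas1 were higher in each HFD mCherry library than in any SD mCherry library (13.9% of all genes), and Egln3, Pdk4, Bnip3, Gpi1, Pfkm, Tpi1 and Ldhb were lower (11.6%). The HFD Tert and HFD mCherry libraries were apart for 8 genes (21.1% of all genes), 5 higher (9.99%) and 3 lower (11.1%). The HFD TertCi and HFD mCherry libraries were apart for 12 (21.5%), 6 higher (9.45%) and 6 lower (12%), and all 6 knock-in libraries from HFD mCherry for 7 (13%). These 7 were Hk2, Pfkfb4 and Pgam1 at a lower level in the knock-ins (7.03% of all genes), and Egln3, Gpi1, Pfkfb3 and Ldha at a higher level (6.01%).

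The promoters of Hk2, Pfkfb4 and Egln3, which had the 3 smallest p-values of the 36 genes for both knock-ins, and of Hk3, next to Hk2 between diets, are shown because HIF sites are the known link between oxygen and this pathway. Each sequence is the RefSeq window of GRCm38.p6 from 250 bases before to 50 bases after the gene's start, on the gene's strand, with the letters ACGTG or GCGTG on either strand in capitals. Hk2 lies at chr6:82774405-82774704 (minus strand) and holds 2 matches, Hk3 at chr13:55021336-55021635 (minus strand) with 1, Pfkfb4 at chr9:108991652-108991951 (plus strand) with 1, and Egln3 at chr12:54203825-54204124 (minus strand) with 1.
Hk2: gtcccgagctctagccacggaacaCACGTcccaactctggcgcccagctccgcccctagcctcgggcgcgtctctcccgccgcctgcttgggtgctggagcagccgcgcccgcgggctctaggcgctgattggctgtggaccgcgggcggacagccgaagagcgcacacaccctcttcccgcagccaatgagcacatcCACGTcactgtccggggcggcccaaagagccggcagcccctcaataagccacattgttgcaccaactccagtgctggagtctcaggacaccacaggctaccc
Hk3: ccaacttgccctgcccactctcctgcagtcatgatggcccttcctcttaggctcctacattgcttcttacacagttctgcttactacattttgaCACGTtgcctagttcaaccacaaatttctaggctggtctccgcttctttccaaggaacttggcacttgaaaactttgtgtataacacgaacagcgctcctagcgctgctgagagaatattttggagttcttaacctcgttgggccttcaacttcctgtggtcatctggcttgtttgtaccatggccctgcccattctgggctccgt
Pfkfb4: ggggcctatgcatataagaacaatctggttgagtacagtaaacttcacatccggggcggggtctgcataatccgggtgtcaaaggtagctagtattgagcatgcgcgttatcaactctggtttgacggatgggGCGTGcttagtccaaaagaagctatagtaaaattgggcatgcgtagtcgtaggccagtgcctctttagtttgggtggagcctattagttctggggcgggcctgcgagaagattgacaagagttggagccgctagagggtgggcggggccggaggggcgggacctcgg
Egln3: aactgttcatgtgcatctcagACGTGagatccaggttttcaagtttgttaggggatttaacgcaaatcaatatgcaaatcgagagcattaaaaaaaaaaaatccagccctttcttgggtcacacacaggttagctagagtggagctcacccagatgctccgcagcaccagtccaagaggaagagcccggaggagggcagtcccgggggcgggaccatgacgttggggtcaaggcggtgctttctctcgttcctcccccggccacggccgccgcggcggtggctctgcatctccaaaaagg
Hk2, Hk3 and Egln3 hold the letters ACGTG (read as CACGT where the match is on the other strand) and Pfkfb4 the letters GCGTG. A window was given for 33 of the 36 genes, and 38 of their 46 windows (82.61%) held either core, beside 43.77% of all 32851 promoter windows. ACGTG alone was in 54.35% of the members' windows and 19.62% of all windows, and GCGTG in 56.52% and 32.39%. Many of the 36 genes are known HIF targets, a match is a description of letters and not of binding, and these 4 promoters include genes at a higher and at a lower level on HFD.

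Oxygen sensing was led by Epas1, which encodes HIF-2 alpha and had the highest mean level of its group per kilobase of exon (93.4 CPM per kb, next to 63.5 for Hif1a, which encodes HIF-1 alpha). Epas1 stood at 280.0, 313 and 257 CPM in SD mCherry and 336, 574 and 649 in HFD mCherry, with 469.8, 539 and 925 in HFD Tert and 399.8, 999 and 525 in HFD TertCi. Each HFD mCherry library was above each SD mCherry library, by a log2 fold change of 0.88 ± 0.39 (SE; edgeR adjusted p = 0.204), and the knock-in libraries overlapped with HFD mCherry. The summed level of 11 endothelial markers was also higher on HFD, at 1902 to 3493 CPM in HFD mCherry against 1061 to 1468 in SD mCherry. It was 2496 to 5965 CPM in HFD Tert and 2726 to 6282 in HFD TertCi. The part of endothelial cells in the level of Epas1 was not tested. Hif1a ranged from 166 to 571 CPM over the 12 libraries, with a diet difference of 0.84 ± 0.36 (adjusted p = 0.191).

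Egln3, the prolyl hydroxylase that HIF itself is known to induce, had the lowest levels in HFD mCherry. It stood at 24.1, 37.6 and 51.2 CPM in SD mCherry and 19.9, 12.7 and 10.0 in HFD mCherry, and 53.3, 54.9 and 27.5 in HFD Tert and 38.7, 45.3 and 49.2 in HFD TertCi. All 9 other libraries lay above the 3 HFD mCherry libraries. The log2 difference was -1.40 ± 0.36 between diets (adjusted p = 0.0764), 1.67 ± 0.37 for HFD Tert (adjusted p = 0.184), 1.64 ± 0.36 for HFD TertCi (adjusted p = 0.165) and 1.65 ± 0.33 for both knock-ins (adjusted p = 0.0560). Egln1, the main hydroxylase of normal oxygen levels, stayed between 39.9 and 63.5 CPM in all libraries, and Egln3 per Egln1 was 0.499 to 1.10 in SD mCherry and 0.217 to 0.499 in HFD mCherry, followed by 0.538 to 1.10 in HFD Tert and 0.729 to 0.868 in HFD TertCi.

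Glucose trapping differed by isoform. Hk2, the inducible hexokinase of muscle, fat and activated cells, had the smallest p of the 36 genes in the diet, HFD Tert, HFD TertCi and both-knock-in comparisons, and its mean per kilobase over the 12 libraries (24.0 CPM per kb) was close to that of the transporter Slc2a1 (24.4 CPM per kb). It stood at 97.2, 76.6 and 64.4 CPM in SD mCherry and 241, 332 and 316 in HFD mCherry, then 90.7, 58.4 and 147 in HFD Tert and 91.7, 118 and 88.9 in HFD TertCi. The HFD mCherry libraries were above all 9 others. The difference between diets was 1.90 ± 0.32 (adjusted p = 0.0652), those of HFD Tert and HFD TertCi against HFD mCherry were -1.58 ± 0.32 (adjusted p = 0.157) and -1.57 ± 0.32 (adjusted p = 0.154), and that of both knock-ins was -1.58 ± 0.26 (adjusted p = 0.0512). Without the filter on low counts the last value became -1.58 with an adjusted p of 0.0497, and with library size as the only scaling -1.47 with an adjusted p of 0.0458, so that Hk2 passed the threshold under both.

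Hk3, the hexokinase known from myeloid blood cells, ranged more widely than Hk2. Its levels were 6.98, 10.0 and 7.47 CPM in SD mCherry and 38.1, 119 and 112 in HFD mCherry, with 12.3, 4.54 and 42.7 in HFD Tert and 11.4, 33.7 and 16.9 in HFD TertCi. HFD Tert replicate 27 lay above HFD mCherry replicate 15, and the other 8 libraries lay below all of HFD mCherry. The diet difference was 3.46 ± 0.78 (adjusted p = 0.0706) and that of both knock-ins -2.15 ± 0.59 (adjusted p = 0.0978). The value for HFD Tert alone, -2.18 ± 0.74 (adjusted p = 0.227), became -3.41 without replicate 27.

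Hk1, the constitutive hexokinase, ran from 48.7 to 105 CPM, with a diet difference of 0.43 ± 0.20 (adjusted p = 0.210). The ratio of Hk2 to Hk1 within a library, which cancels the library's scaling, was 0.967 to 1.85 in SD mCherry and 3.71 to 4.26 in HFD mCherry, and 0.557 to 1.57 in HFD Tert and 0.859 to 1.42 in HFD TertCi. For Hk3 to Hk1 it was 0.112 to 0.206, 0.602 to 1.51, 0.0433 to 0.455 and 0.150 to 0.406 in the same order. The HFD mCherry libraries overlapped with no other group in either ratio, while the knock-in groups overlapped with each other. Hk2 and Hk3 were chosen by p-value in these libraries, so the ratios are no separate support. The glucose transporters Slc2a1 (60.7 to 119 CPM) and Slc2a3 (22.2 to 78.4 CPM) differed between diets by -0.02 ± 0.24 and -0.06 ± 0.42, with adjusted p of 0.972 and 0.941.

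**Figure D2:**
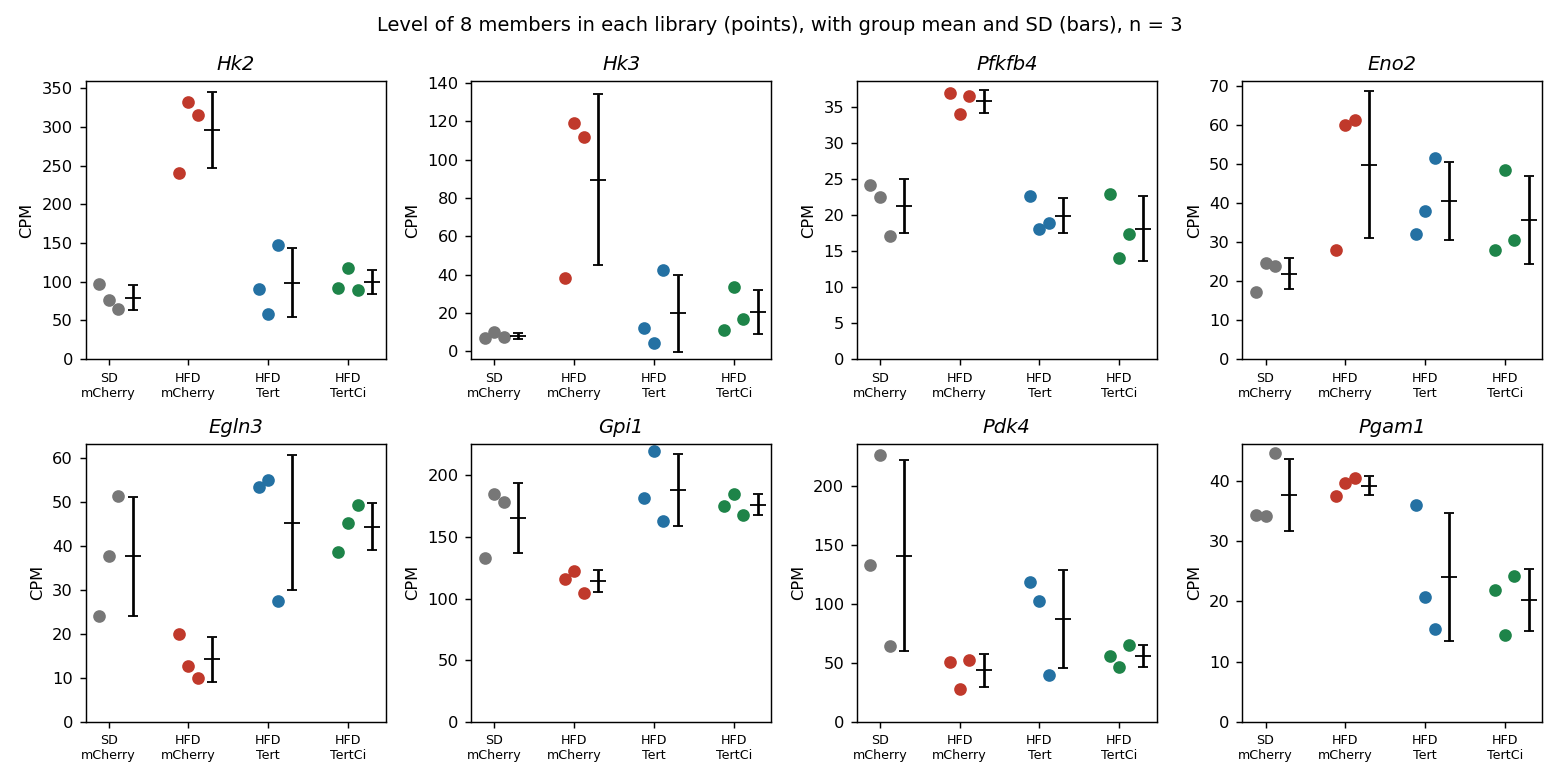
Level (CPM, TMM-scaled) of 8 genes in each of the 12 libraries, with 3 points a group and the mean and SD (bars) of the group beside them; the Hk3 axis starts below 0 to hold a bar. Hk2, Hk3 and Pfkfb4 are highest and Egln3 and Gpi1 lowest in HFD mCherry, and Pgam1 is lower in both knock-in groups than in HFD mCherry.

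Macrophage markers stood highest in the same group as Hk2 and Hk3. The summed level of 18 macrophage markers was 1264 to 1495 CPM in SD mCherry and 2885 to 7201 in HFD mCherry, followed by 1048 to 2946 in HFD Tert and 1368 to 2110 in HFD TertCi, with none of the 18 at 0 in any library. By edgeR 0 of the 18 were called, while 15 were higher at an unadjusted p under 0.05 between diets (14.1% of all genes) and 18 lower in both knock-ins (13.4%). DESeq2 called 14 and 13 of them (12.6% and 8.5% of the genes it tested). Summed progenitor markers also stood highest in HFD mCherry (8595 to 24825 CPM, against 3863 to 5466 in SD mCherry, 6468 to 14002 in HFD Tert and 5546 to 12060 in HFD TertCi), with 10 of 12 higher at an unadjusted p under 0.05 between diets. By edgeR 1 of the 12, Pdgfra, was called lower in HFD TertCi (adjusted p = 0.0426; 0.012% of all genes) and in both knock-ins (adjusted p = 0.0119; 0.168%). The summed level of 6 markers of mesothelium, the lining of the abdominal cavity, was lowest in HFD mCherry, as Egln3 and Gpi1 were. It was 281 to 323 CPM there against 438 to 1625 CPM in the other 9 libraries, with none of the 6 at 0. This held for the sum and not for each gene. In SD mCherry 3, Krt19 made up 348 of the 438 CPM. Msln (15.8 CPM), Upk3b (32.8), Lrrn4 (3.48) and Wt1 (11.6) were lower in that library than in any HFD mCherry library, while Upk1b lay within the HFD mCherry range. Of these 6, 1 was higher and 2 were lower at an unadjusted p under 0.05 between diets, 4 were higher in both knock-ins (7.56% of all genes), and edgeR called 0. The part of these cell types in the levels of Hk2, Hk3, Egln3, Gpi1 and the other genes was not tested.

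Upper glycolysis, from glucose 6-phosphate to the triose phosphates, had 5 of 7 genes at an unadjusted p under 0.05 between diets, of which 4 were lower on HFD (10% of all genes were lower at that p) and 1, Pfkp, was higher. Gpi1, the isomerase that makes fructose 6-phosphate, stood at 133, 185 and 179 CPM in SD mCherry and 116, 123 and 105 in HFD mCherry, then 181, 220.0 and 163 in HFD Tert and 175, 185 and 168 in HFD TertCi. HFD mCherry was below all 9 other libraries, by -0.53 ± 0.19 between diets (adjusted p = 0.136), while both knock-ins stood 0.67 ± 0.17 above it (adjusted p = 0.0830). Of the 50-base stretches of Gpi1, 18.65% also occur in other genes, 39 of them in the count tables, so its counts are less certain. Pfkm, the muscle form of phosphofructokinase, stood at 30.4, 28.8 and 58.3 CPM in SD mCherry and 20.8, 17.4 and 13.3 in HFD mCherry, with 43.0, 54.8 and 16.7 in HFD Tert and 38.9, 23.6 and 34.6 in HFD TertCi. HFD Tert replicate 27 fell inside the HFD mCherry range, and the HFD Tert difference was 1.15 ± 0.43 (adjusted p = 0.243). Skeletal muscle actin, Acta1, was at 205, 15.3 and 443 CPM in SD mCherry and 41.1, 63.0 and 1.43 in HFD mCherry, with 444, 607 and 0 in HFD Tert and 323, 0.708 and 436 in HFD TertCi. The 12 muscle markers summed to 39.7 to 1232 CPM in SD mCherry, 11.3 to 122 in HFD mCherry, 13.6 to 1293 in HFD Tert and 14.6 to 743 in HFD TertCi. Where the sum was high, Acta1, Tnnc2, Ckm and Casq1 made up most of it. Myh1, Myh2, Mylpf and Atp2a1 reached at most 1.88 CPM, and Tnnt3, Tnni2 and Actn3 at most 5.92. Myh4 was at 0 throughout and Ckm and Acta1 in HFD Tert 27. In each group the library with the least Acta1 also had the least Pfkm, and was the library with Crisp1 under 1 CPM. The part of muscle or of epididymal tissue in the level of Pfkm was not tested.

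The other phosphofructokinase genes differed in opposite directions between diets: Pfkl, the liver form, by -1.07 ± 0.41 (adjusted p = 0.157) and Pfkp, the platelet form, by 0.87 ± 0.38 (adjusted p = 0.201). Their ratio, Pfkp to Pfkl, was 0.713 to 1.05 in SD mCherry and 1.21 to 6.13 in HFD mCherry. Aldoa, the main aldolase, was the most abundant of all 36 genes per kilobase (247 CPM per kb) and stood at 644, 895 and 912 CPM in SD mCherry and 670.2, 635 and 622 in HFD mCherry, and 742, 927 and 538 in HFD Tert and 719, 661 and 653 in HFD TertCi. Its groups overlapped in every comparison, with a diet difference of -0.35 ± 0.24 (adjusted p = 0.379). Tpi1, triose phosphate isomerase, was lower in each HFD mCherry library (118 to 208 CPM) than in any SD mCherry library (238 to 297 CPM), by -0.85 ± 0.33 (adjusted p = 0.166), and Aldoc, the brain aldolase, was at most 48.6 CPM.

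Lower glycolysis held the genes with the largest shares of sequence also found in other genes. Of all 50-base stretches in its exons, Pgk1 (phosphoglycerate kinase) shared 67.96% with other genes, Gapdh 58.36%, Eno1 (enolase of most tissues) 49.51% and Pgam1 (phosphoglycerate mutase) 41.48%, and processed pseudogenes are well known for these genes; how reads that fit several places were counted is not given in the sources used here. Gapdh, usually among the most abundant mRNAs, averaged 10.8 CPM here and Pgk1 3.84 CPM, while Pkm, with 23.73% shared, averaged 426 CPM. Differences in Pgk1, Gapdh, Eno1 and Pgam1 are therefore reported as uncertain. Outside this group Ldhb (20.99%), Bnip3 (20.72%) and Gpi1 (18.65%) also shared such stretches, and their counts carry the same limit to a lesser degree.

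**Figure D3:**
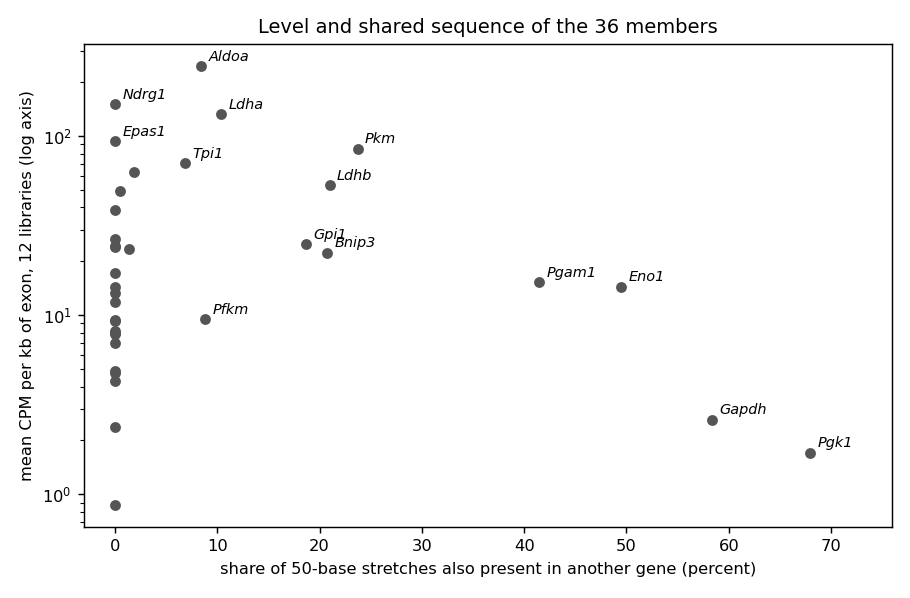
Share of each gene's 50-base exon stretches that also occur in another annotated gene (x axis, percent) against its mean level per kilobase of exon over 12 libraries (y axis, CPM per kb, log scale), 1 point a gene. Pgk1 and Gapdh, which share 67.96% and 58.36%, have mean levels of 1.71 and 2.61 CPM per kb, among the lowest of the 36 genes.

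Pkm, pyruvate kinase of muscle and proliferating cells, was the most abundant of this group. It stood at 373, 459 and 441 CPM in SD mCherry and 362, 459 and 382 in HFD mCherry, followed by 483, 507 and 403 in HFD Tert and 421, 451 and 368 in HFD TertCi, and its groups overlapped throughout (diet difference -0.08 ± 0.19, adjusted p = 0.810). Its highest library was 1.40 times its lowest, the narrowest range of the 36 genes. Eno2, the neuronal enolase, stood at 17.3, 24.7 and 23.9 CPM in SD mCherry and 28.0, 60.1 and 61.4 in HFD mCherry, then 32.1, 38.0 and 51.6 in HFD Tert and 28.0, 48.5 and 30.5 in HFD TertCi. Its diet groups were apart, by 1.18 ± 0.34 (adjusted p = 0.0934), and the knock-in groups overlapped with HFD mCherry. Pgam1 stood at 34.3, 34.2 and 44.6 CPM in SD mCherry and 37.5, 39.6 and 40.5 in HFD mCherry, with 35.9, 20.7 and 15.5 in HFD Tert and 21.8, 14.4 and 24.3 in HFD TertCi. Every knock-in library was below every HFD mCherry library, by -0.83 ± 0.26 for both knock-ins (adjusted p = 0.119) and -0.96 ± 0.31 for HFD TertCi (adjusted p = 0.234), with the limit that its counts share sequence with other genes.

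Of the 4 lactate genes, 0 had an unadjusted p under 0.05 between diets. Ldha, the lactate dehydrogenase subunit that favours lactate formation, stood at 272, 475 and 466 CPM in SD mCherry and 258, 415 and 341 in HFD mCherry, and 489, 586 and 529 in HFD Tert and 449, 565 and 425 in HFD TertCi. All 6 knock-in libraries were above the 3 HFD mCherry libraries, by 0.58 ± 0.24 (adjusted p = 0.199). The monocarboxylate transporters Slc16a1 (94.9 to 245 CPM) and Slc16a3 (38.1 to 102 CPM) overlapped between all groups, with diet differences of -0.24 ± 0.31 and -0.30 ± 0.34.

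Ldhb, the subunit that favours lactate use, varied widely between libraries of 1 group. It stood at 78.3, 99.3 and 174 CPM in SD mCherry and 62.1, 15.7 and 7.11 in HFD mCherry, followed by 141, 151 and 14.7 in HFD Tert and 128, 13.6 and 115 in HFD TertCi. The 4 low libraries were HFD mCherry 17 and 20, HFD Tert 27 and HFD TertCi 31, at 7.11 to 15.7 CPM, against 62.1 to 174 CPM in the other 8, and Ldha per Ldhb was 26.5 to 47.9 in those 4 and 2.68 to 4.78 in the rest. Pdk1, which inhibits pyruvate dehydrogenase and so the conversion of pyruvate to acetyl-CoA, was low in the same 4 libraries (12.6 to 18.1 CPM, against 38.3 to 60.2).

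These 4 were also the libraries with the least Epcam, at 3.23 to 36.9 CPM against 66.1 to 543 in the other 8. Split this way, 8 of the 36 genes had no overlap: Ldhb, Pdk1, Aldoc and Tpi1 were lower and Epas1, Pfkp, Eno2 and P4ha1 higher in the 4 libraries, which is 11.11% in each direction beside 12.49% lower and 10.47% higher among all genes tested. The 4 libraries include 2 of the 3 HFD mCherry libraries and none from SD mCherry. With a score of epithelial genes as a covariate, the diet difference of Ldhb was -1.87 (adjusted p = 0.0470) in place of -2.05 ± 1.04 (adjusted p = 0.249), and Hk2 and Hk3 stood at 1.70 and 2.76 (adjusted p = 0.00398 and 0.00411). With that covariate 5 of the 36 genes were called between diets (7.44% of all genes), 7 for HFD Tert (5.44%), 5 for HFD TertCi (3.03%), 9 for both knock-ins (9.39%) and 6 over the 4 groups (6.96%).

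**Figure D4:**
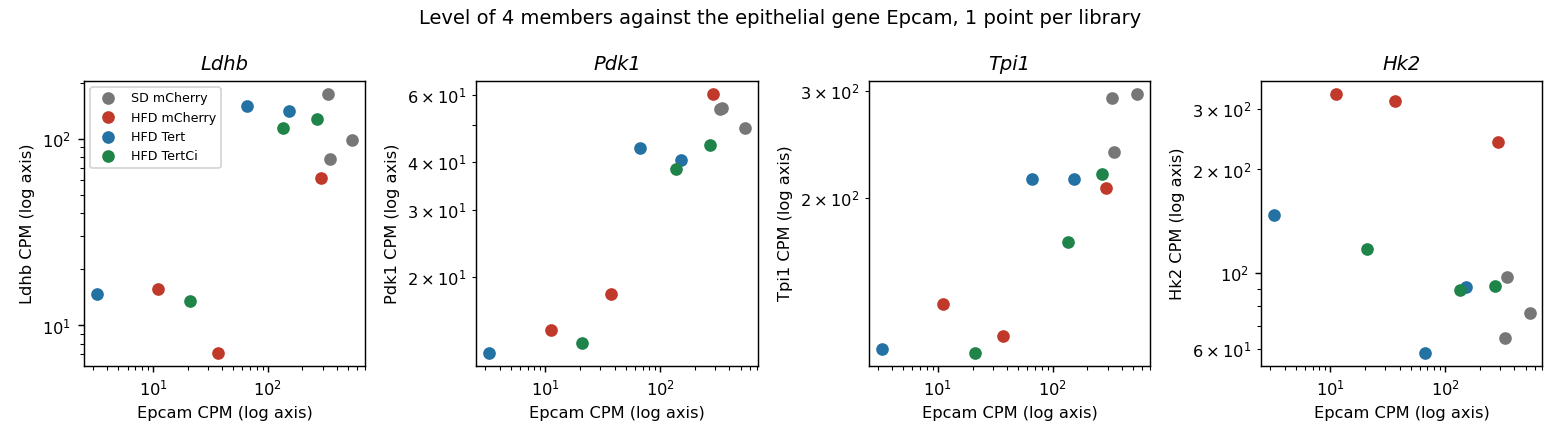
Level of Ldhb, Pdk1, Tpi1 and Hk2 (y axis, CPM, log scale) against that of Epcam (x axis, CPM, log scale) in the 12 libraries, coloured by group. Ldhb, Pdk1 and Tpi1 are low in the 4 libraries with Epcam at 3.23 to 36.9 CPM, which come from the 3 HFD groups and not from SD mCherry. Hk2 is highest in the 3 HFD mCherry libraries.

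Hk2 was also read by the level of Crisp1, a split chosen after the data were seen. Hk2 itself had been chosen by its p-value in these same libraries, so the values below are a description and no separate support. In the 4 libraries with Crisp1 under 1 CPM, 1 of each group, Hk2 was 316 CPM in HFD mCherry 20, above SD mCherry 2 at 76.6, HFD Tert 27 at 147 and HFD TertCi 31 at 118. In the 8 libraries above 500 CPM of Crisp1, the diet difference of Hk2 was 1.82 (adjusted p = 0.144) and that of both knock-ins -1.80 (adjusted p = 0.0845), beside 1.90 and -1.58 in all 12 libraries. These 8 were not matched: HFD mCherry 17 had Crisp1 at 641 CPM and Epcam at 11.1 CPM. The others had Crisp1 at 2396 to 14780 CPM and Epcam at 66.1 to 344 CPM. The part of epididymal or epithelial tissue in the level of Hk2 was not tested.

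Among the regulatory kinases, Pfkfb3 and Pfkfb4, which make the activator fructose 2,6-bisphosphate, differed in pattern. Pfkfb4 stood at 24.1, 22.6 and 17.1 CPM in SD mCherry and 37.0, 34.0 and 36.6 in HFD mCherry, then 22.7, 18.1 and 19.0 in HFD Tert and 23.0, 14.1 and 17.3 in HFD TertCi. HFD mCherry was above all 9 other libraries, by 0.75 ± 0.22 over SD mCherry (adjusted p = 0.0979), and the differences from it were -0.85 ± 0.23 for HFD Tert (adjusted p = 0.189), -0.98 ± 0.23 for HFD TertCi (adjusted p = 0.168) and -0.91 ± 0.19 for both knock-ins (adjusted p = 0.0560). Pfkfb3, the most abundant of the group, stood at 300.5, 309 and 245 CPM in SD mCherry and 189, 327 and 334 in HFD mCherry, with 372, 356 and 575 in HFD Tert and 348, 692 and 452 in HFD TertCi. All 6 knock-in libraries were above HFD mCherry, by 0.71 ± 0.29 (adjusted p = 0.194), with a diet difference of -0.01 ± 0.32. Pfkfb4 per Pfkfb3 was 0.0698 to 0.0803 in SD mCherry and 0.104 to 0.195 in HFD mCherry, and 0.0330 to 0.0610 in HFD Tert and 0.0204 to 0.0661 in HFD TertCi, with HFD mCherry above every other library.

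**Figure D5:**
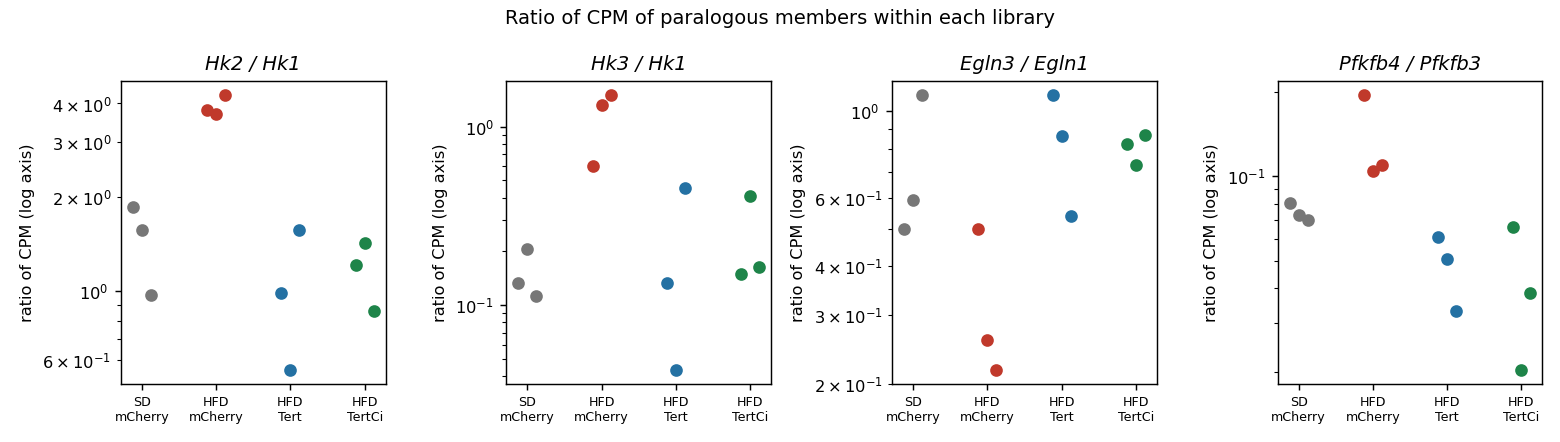
Ratio of CPM of 2 related genes within each library (y axis, log scale), 1 point a library, by group. HFD mCherry lies above the 9 other libraries for Hk2 to Hk1 (3.71 to 4.26), Hk3 to Hk1 (0.602 to 1.51) and Pfkfb4 to Pfkfb3 (0.104 to 0.195), and lowest for Egln3 to Egln1 (0.217 to 0.499), where its highest library is level with the lowest SD mCherry library. Hk2, Hk3, Pfkfb4 and Egln3 were chosen by p-value in these libraries, so the ratios largely repeat that choice. Other ratios were computed and are not drawn. Ldha to Ldhb, Slc2a3 to Slc2a1, Pfkm to Pfkl, Aldoc to Aldoa, Slc16a3 to Slc16a1 and Pdk4 to Pdk1 overlapped in every comparison.

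Pdk4, the pyruvate dehydrogenase kinase of fasting and fat oxidation, had its widest spread in SD mCherry. It stood at 133, 226 and 64.2 CPM in SD mCherry and 50.7, 27.7 and 52.4 in HFD mCherry, followed by 119, 103 and 39.8 in HFD Tert and 55.7, 46.9 and 65.4 in HFD TertCi. The diet groups were apart, by -1.69 ± 0.49 (adjusted p = 0.0947), and both knock-in groups overlapped with HFD mCherry.

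The remaining HIF targets varied without a common direction. Ndrg1, a stress-response gene and the most abundant of them, stood at 740.0, 1678 and 546 CPM in SD mCherry and 602, 1193 and 1122 in HFD mCherry, then 758, 1043 and 1324 in HFD Tert and 628, 1583 and 732 in HFD TertCi, so that all groups overlapped (diet difference -0.02 ± 0.49). Bnip3, a mitophagy receptor, was lower in each HFD mCherry library (20.8 to 55.6 CPM) than in SD mCherry (68.5 to 117 CPM), by -1.38 ± 0.48 (adjusted p = 0.132). P4ha1, a collagen prolyl hydroxylase, differed by 1.06 ± 0.38 (adjusted p = 0.145) with overlap. Ankrd37 stood at 10.9, 16.8 and 0.695 CPM in SD mCherry and 0.852 to 3.15 in the other 9 libraries, and 26.4% of its exon bases overlap Lrp2bp and Ufsp2 on the opposite strand, from which reads cannot be told apart without strand. Adm, which encodes the vasodilator adrenomedullin, stood at 31.9, 38.5 and 44.5 CPM in SD mCherry and 35.6, 35.7 and 38.8 in HFD mCherry, with 54.4, 28.6 and 47.7 in HFD Tert and 58.0, 57.4 and 49.8 in HFD TertCi. HFD TertCi was above HFD mCherry in all libraries, by 0.59 ± 0.23 (adjusted p = 0.290). Car9, the carbonic anhydrase widely used as a hypoxia marker, stayed between 1.22 and 3.09 CPM, the lowest level per kilobase of the 36 genes (0.874 CPM per kb).

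HFD Tert and HFD TertCi differ in the catalytic activity of the protein their knock-in encodes. By edgeR 0 of the 36 genes were called between them (0% of all genes), 0 had an unadjusted p under 0.05 (1.36% of all genes) and 0 had groups apart (5.13%), and DESeq2 called 0 (0.0487%) as did limma-voom. The median log2 difference, HFD Tert minus HFD TertCi, was 0.13 beside -0.01 over all genes. For Hk2 it was -0.01 ± 0.31, for Egln3 0.03 ± 0.35 and for Pfkfb4 0.13 ± 0.22, while for Hk3 the SE was 0.71 and for Ldhb 1.00, which leaves large differences possible. The smallest p belonged to Car9 (0.66 ± 0.43), Adm (-0.34 ± 0.23) and Pdk4 (0.64 ± 0.48), all with an adjusted p of 1. Car9 stood at 3.09, 2.99 and 1.59 CPM in HFD Tert and 1.53, 1.93 and 1.40 in HFD TertCi, with HFD Tert replicate 27 inside the HFD TertCi range. The value of Pdk4 was 0.35 without HFD Tert replicate 25 and 0.99 without replicate 27, and that of Adm was -0.53 without HFD Tert replicate 25 and -0.11 without replicate 26.

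A further 87 genes of glycolysis and pyruvate, gluconeogenesis and glycogen, the pentose phosphate path, oxygen sensing and HIF targets, 86 of them tested, showed how the wider pathway behaved. By edgeR 0 of 86 were called in any of the 5 pairwise comparisons, with 27 at an unadjusted p under 0.05 between diets (13 higher, 14 lower; 24.1% of all genes), 14 for HFD Tert (16.4%), 16 for HFD TertCi (14.7%), 24 for both knock-ins (21%) and 0 between the knock-ins (1.36%). These were 31.4%, 16.3%, 18.6%, 27.9% and 0% of the 86. DESeq2 called 18, 5, 3, 6 and 0 in the same order, beside 12.6%, 4.89%, 3.71%, 8.5% and 0.0487% of all the genes it tested. The 29 further HIF targets had 11 higher and 3 lower at that p between diets (14.1% of all genes were higher and 10% lower), while the 15 genes of gluconeogenesis and glycogen had 0 higher and 6 lower. Among the smallest p between diets were those of Angptl4, an inhibitor of lipoprotein lipase, and Plin2, a lipid droplet coat protein. Angptl4 stood at 94.7, 88.6 and 53.9 CPM in SD mCherry and 358, 673 and 677 in HFD mCherry, a difference of 2.85 ± 0.48 (adjusted p = 0.0652), with Plin2 at 2.93 ± 0.64 (adjusted p = 0.0671).

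In both knock-in groups against HFD mCherry the smallest p of the further genes belonged to Tceb2, which encodes Elongin B of the VHL ubiquitin ligase, Pygm, the muscle glycogen phosphorylase, and Adpgk, an ADP-dependent glucokinase. Tceb2 stood at 14.5, 16.7 and 13.1 CPM in HFD mCherry, 29.5, 45.9 and 35.9 in HFD Tert and 41.3, 41.3 and 27.5 in HFD TertCi, a difference of 1.32 ± 0.25 (adjusted p = 0.0560). Pygm differed by 1.49 ± 0.30 (adjusted p = 0.0560) and Adpgk by -0.63 ± 0.15 (adjusted p = 0.0737), and for all 3 the 6 knock-in libraries were apart from HFD mCherry. Acta1 ran from 0 to 607 CPM between libraries and was lowest in each group where Crisp1 was under 1 CPM, while Myh1 reached at most 1.73 CPM. The part of muscle or of epididymal tissue in the result for Pygm was not tested. Between the knock-ins Hilpda and Tkt, which encodes transketolase, were among the genes with the smallest p, each with an adjusted p of 1; Hilpda, a lipid droplet protein, stood at 163, 192 and 213 CPM in HFD Tert and 79.9, 144 and 97.4 in HFD TertCi.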

How the data were processed

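Per the labels' protocols, poly-T selection preceded cDNA synthesis from random hexamers. For each library the authors deposited unnormalized read counts by gene symbol; Subread with featureCounts 1.6.4, SAMtools and the mm10 genome are named in the submitters' processing notes, and the annotation, strand setting and handling of multi-mapping reads are not given in the sources used here. Counts were analysed as deposited with edgeR 4.0.16 in R 4.3.3: filterByExpr, TMM, and 1 robust quasi-likelihood fit of all 12 libraries (common biological coefficient of variation 0.536, 8 residual degrees of freedom), 2-sided, with Benjamini-Hochberg adjustment over 16713 genes and calls under 0.05. DESeq2 1.42.0 and limma 3.58.1 (voom) were alternatives, with other scaling, no filter, only the libraries compared, an epithelial covariate, each library left out, and, chosen after seeing the data, only libraries above 500 CPM of Crisp1. The edgeR fit was also run on simulated data, and the share of changed genes it recovered is not reported here.

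Values in every library are given for the 6 genes with the smallest p in each comparison with HFD mCherry or between diets, the 3 with the smallest p between knock-ins (mean of at least 1 CPM) and the most abundant of each role; Ldhb, Ankrd37 and the split by Epcam were chosen after their values were seen. The 36 genes and all lists were chosen with earlier results of these data known. Exon lengths, shared 50-base stretches and overlaps came from the GENCODE annotation of GRCm38, and promoters from RefSeq GRCm38.p6. Elob was matched as Tceb2 and Eloc as Tceb1. Protein sequences were not used here, and single values of some further pathway genes are not reported here.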

Additional observations from a re-analysis of the deposited data

How the results depend on the processing

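No paired analysis was possible because no 2 groups share a replicate number. None of the 27 differences named for single genes changed sign under any of the 20 alternatives. They were chosen by the smallest p-values in these same counts, which makes a kept sign likely in advance. Apart from fits without 1 library, the 36 genes called were 0 under every alternative except these: DESeq2 called 10 between diets, 5 for HFD Tert, 4 for HFD TertCi, 5 for both knock-ins and 9 over the 4 groups; the epithelial covariate gave 5, 7, 5, 9 and 6 in that order; and library size only or no filter each gave 1 (Hk2) for both knock-ins. All genes called between diets numbered 8, against 2 with DESeq2's kind of size factors (RLE) in edgeR, 1988 with DESeq2, 0 with limma-voom, 0 with only the libraries compared, 1243 with the covariate and 0 with only libraries above 500 CPM of Crisp1. For HFD Tert they numbered 0, against 810 with DESeq2 and 909 with the covariate. For HFD TertCi the 2 became 1 with library size only, 599 with DESeq2, 0 with only the libraries compared, 506 with the covariate and 0 with the Crisp1 limit, and between the knock-ins 0 became 10 with DESeq2. For both knock-ins the 28 became 121 with library size only, 1442 with DESeq2, 12 with limma-voom, 68 with only the libraries compared, 1570 with the covariate and 0 with the Crisp1 limit. Over the 4 groups the 2 became 2224 with DESeq2, 0 with limma-voom, 1164 with the covariate and 0 with the Crisp1 limit. The diet median of the 36 genes was -0.28 with library size only. Keeping only the libraries compared gives no fit over the 4 groups. The causes of these moves were not tested.

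Leaving out 1 library at a time, the 36 genes called ranged from 0 to 9 between diets, 0 to 2 for HFD TertCi, 0 to 4 for both knock-ins and 0 to 3 over the 4 groups, and stayed at 0 for HFD Tert and between the knock-ins. Calls came without HFD mCherry 15 (9 between diets, 2 for HFD TertCi, 3 for both knock-ins, 1 over the 4 groups), without HFD Tert 27 (3 between diets, 4 for both knock-ins, 2 over the 4 groups) and without SD mCherry 3 (3 for both knock-ins, 3 over the 4 groups). The share of all genes called in each of these fits is not given here, so these counts are not a result about the 36 genes. All genes called ranged from 0 to 2082 between diets, 0 to 51 for HFD Tert, 0 to 198 for HFD TertCi, 0 to 690 for both knock-ins and 0 to 651 over the 4 groups. The median of the 36 genes ranged from -0.23 to -0.040 between diets, 0.18 to 0.32 for HFD Tert, 0.03 to 0.14 for HFD TertCi, 0.08 to 0.17 between the knock-ins and 0.10 to 0.23 for both knock-ins. The lowest count of the 36 genes in a library was 12.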
